A study of Mus musculus with 22 samples.

Results

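Metabotropic glutamate receptor mRNA was examined in the hippocampal CA1 sector of mice fed ad libitum (AL) or a calorie-restricted diet (CR) to 5 or 15 months of age. The receptors were the 6 genes Grm2, Grm3, Grm4, Grm5, Grm7 and Grm8, taken by name from a matrix of 23361 genes that holds 8 rows named Grm. All mice were female and wild type, F1 hybrids of a Swiss Webster by DBA/C57BL6 cross, and the restriction took away carbohydrate. The 4 groups were AL mice at 5 months (n = 5), CR mice at 5 months (n = 5), AL mice at 15 months (n = 6) and CR mice at 15 months (n = 6), with 1 mRNA sequencing library from the microdissected CA1 of each mouse, 22 in all. The design asks how receptor expression changed with age under each diet and whether CR altered it at either age. The microdissected tissue contained every cell type of the block, so fewer cells of a type and less RNA per cell cannot be told apart.

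Metabotropic glutamate receptors are G protein-coupled receptors that sense glutamate released at synapses and adjust transmission over a slower time scale than the ion channel receptors. They form 3 groups. Group I, represented here by Grm5, couples to Gq and phospholipase C, sits mainly around the postsynaptic density, and in CA1 is known for a protein synthesis-dependent form of long-term depression. Group II (Grm2 and Grm3) and group III (Grm4, Grm7 and Grm8) couple to Gi/o, lower cyclic AMP and act largely as presynaptic brakes on transmitter release, and Grm3 is also a major receptor of astrocytes.

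Values are FPKM, which give sequenced fragments relative to transcript length and to the mapped total of the library and allow levels of genes of different length to be set side by side. All 6 receptors passed the filter of a mean of at least 0.1 FPKM that left 16978 genes in the test. Differences were fitted on the log2(FPKM + 0.1) scale with limma over all 4 groups, and a gene was called at a Benjamini-Hochberg adjusted p under 0.05 over all genes tested. Exact two-sided permutation tests of single receptors are given beside these values, unadjusted, and 24 were run. Their smallest possible p is 0.00433 for 6 mice against 5, 0.00794 for 5 against 5 and 0.00216 for 6 against 6. The libraries held 18281 to 19175 genes above 0, their median FPKM was 2.51 to 3.10, and the correlation between any 2 libraries was 0.889 to 0.945 across genes. The paper reports an average number of read pairs per sample. The depth of each library could not be recovered from the values and is unknown.

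The receptor genes lie on 5 chromosomes of the GRCm38 mouse assembly, with gene limits from GENCODE M21. Grm5 (mGluR5) spans chr7:87584168-88134907 on the plus strand, Grm7 spans chr6:110645581-111567230 on the plus strand, and Grm8 lies on the same chromosome at chr6:27275119-28135178 on the minus strand. Grm2 is the most compact of the 6, at chr9:106643095-106656082, while Grm3 spans chr5:9485541-9725170 and Grm4 spans chr17:27422387-27521403, all 3 on the minus strand. An antisense gene overlaps exons of Grm2 (Gm28111) and of Grm7 (Gm20387). The library kit does not mark strand, so reads from these antisense genes and from the receptor genes cannot be told apart.

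RefSeq promoter windows of 300 bases, 250 before and 50 after a transcription start, were found for 4 of the 6 receptors, Grm2, Grm3, Grm7 and Grm8. Those of Grm2 and Grm8 are shown because these were the 2 receptors with a window that had the largest fitted age differences. Each is written 5′ to 3′ along the gene, with the GC box GGGCGG in capitals. The Grm2 window covers chr9:106656060-106656359 and the Grm8 window chr6:28135097-28135396 (GRCm38.p6, both on the minus strand).
Grm2: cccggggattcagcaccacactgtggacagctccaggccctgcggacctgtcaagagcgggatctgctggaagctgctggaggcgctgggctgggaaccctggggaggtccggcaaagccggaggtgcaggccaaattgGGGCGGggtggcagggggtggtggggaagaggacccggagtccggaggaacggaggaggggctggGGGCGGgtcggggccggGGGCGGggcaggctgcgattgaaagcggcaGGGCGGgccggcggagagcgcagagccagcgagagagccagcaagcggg
Grm8: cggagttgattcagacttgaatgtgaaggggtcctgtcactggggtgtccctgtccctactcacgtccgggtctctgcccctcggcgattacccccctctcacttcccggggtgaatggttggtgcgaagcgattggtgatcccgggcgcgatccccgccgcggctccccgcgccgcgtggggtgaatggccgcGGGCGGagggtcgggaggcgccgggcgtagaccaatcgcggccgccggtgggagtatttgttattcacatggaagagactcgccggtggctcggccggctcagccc
Both windows are rich in G and C. The Grm2 window had 72% GC with 22 CpG dinucleotides, and the Grm8 window 67% GC with 33, where the median over 32851 RefSeq promoter windows of mouse genes was 52.7% and 7. The GC box, searched on both strands, occurred 4 times in the Grm2 window and 1 time in the Grm8 window, and 35.7% of all windows held at least 1. Neither window held the cyclic AMP response element TGACGTCA, which was in 1.79% of all windows, or its shorter core TGACG, in 20.8%, or the TATA box letters TATAAA, in 13.6%. Of 3 Grm8 windows the one shown has the start nearest to the 5′ limit of the gene. The other two had 54% GC with 10 CpG dinucleotides and 1 TGACG, and 43.3% GC with 2 CpG dinucleotides and none of the motifs. These matches describe the sequence only.

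Grm5 was the most abundant of the 6 receptors by group mean in all 4 groups. Its mean over the 22 libraries was 43.5 FPKM, higher than 85.8% of the genes tested, while Grm2, Grm7 and Grm3 lay between the 65.0 and 72.8 percentiles and Grm4 and Grm8 at the 38.3 and 36.2 percentiles. In AL mice at 5 months the levels were 48.5 ± 4.90 FPKM for Grm5 (mean ± SD, n = 5), 19.2 ± 2.76 for Grm7, 16.6 ± 1.56 for Grm3, 14.7 ± 7.09 for Grm2, 2.70 ± 0.731 for Grm4 and 2.09 ± 0.748 for Grm8. The order was the same in CR mice at 5 months. The ranges of Grm5 and Grm7 did not overlap in either 5-month group, nor did those of Grm2 and Grm4, which separates 1 abundant, 3 intermediate and 2 low receptors. Among neighbours in the order within the intermediate set, Grm7 and Grm3 in CR mice had ranges that did not overlap and the others overlapped.

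The order was less distinct at 15 months. In AL mice Grm2 ranked next to Grm5, with 34.1 ± 18.5 against 35.9 ± 1.66 FPKM (n = 6), and Grm5 exceeded Grm2 in only 3 of 6 libraries. No neighbours in the order had ranges that stayed apart in that group. In CR mice at 15 months Grm5 (42.7 ± 7.58 FPKM, n = 6) exceeded Grm2 (27.2 ± 9.13) in 5 of 6 libraries, and Grm8 and Grm4 had like means of 5.67 and 5.65 FPKM.

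**Figure D1:**
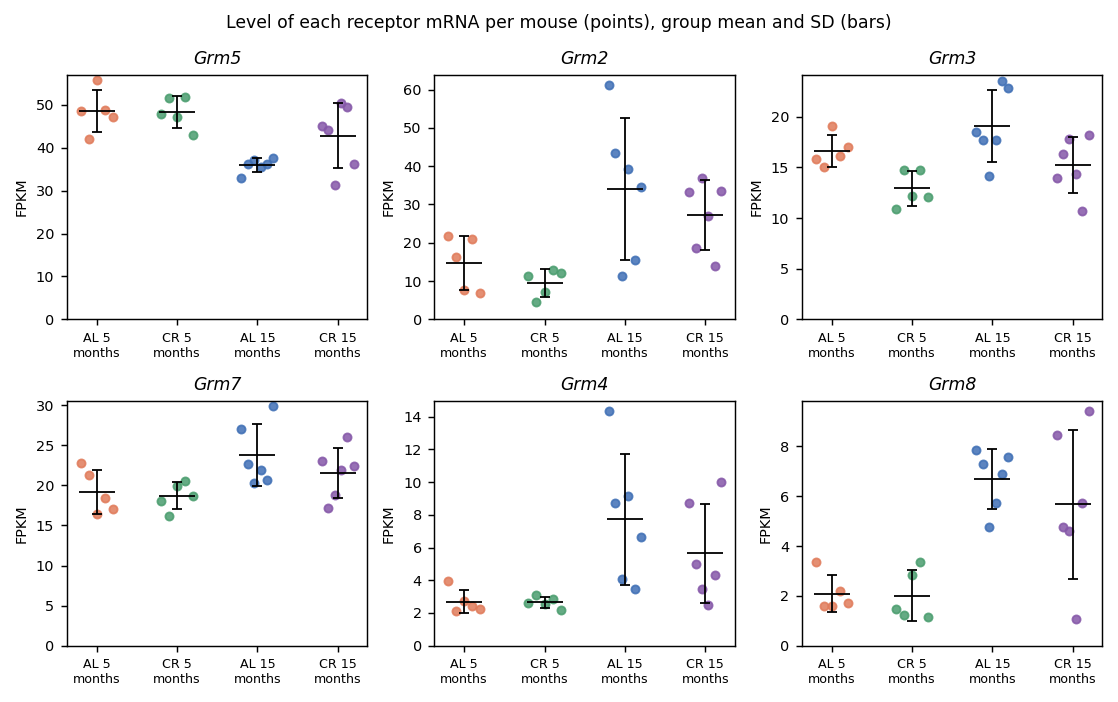
FPKM of each receptor (vertical axis, linear from 0) in the 4 groups, with 1 point per mouse and bars for the group mean and SD. Grm5 sits at 32.9 to 37.7 FPKM in AL mice at 15 months, below all AL mice at 5 months, while Grm8 sits at 4.77 to 7.86, above all of them.

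The tissue was checked against lists of marker genes, which were chosen with earlier results of these data known. Changes of these markers are therefore not an independent test of the tissue. All 8 CA1 pyramidal neuron markers were above 0 in every library, with summed levels of 149 FPKM or more. The markers of all 13 lists were also above 0 in every library, so presence alone does not set CA1 apart from other tissue. In AL mice, however, markers of other tissue moved with age. Of 10 neocortex and subiculum markers, 6 were higher at 15 months (Cux1, Tbr1, Lamp5, Ngef, Rorb and Foxp2), and their summed level was 147 to 177 FPKM in AL mice at 5 months, 127 to 198 in CR mice at 5 months, 228 to 436 in AL mice at 15 months and 166 to 284 in CR mice at 15 months. Of the 8 CA1 markers 4 were lower, and their sum was 250 to 461 FPKM in AL mice at 5 months, 305 to 470 in CR mice at 5 months, 211 to 331 in AL mice at 15 months and 149 to 437 in CR mice at 15 months. A region score, the mean log2 level of the neocortex and subiculum markers minus that of the CA1 markers, was -2.16 to -1.24 in AL and -1.94 to -1.68 in CR mice at 5 months, and -0.913 to 1.17 in AL and -1.55 to 0.112 in CR mice at 15 months, so that under each diet every 15-month library lay above every 5-month library. The age differences of the receptors are therefore given also with the region score in the model. Choroid plexus markers were lower with age, 3 of 8 in AL and 7 of 8 in CR mice, and their sums in CR mice at 5 months spread from 8.65 to 252 FPKM. In AL mice 2 of 7 dentate gyrus and 2 of 8 oligodendrocyte markers were also lower. None of the 8 interneuron markers was called in either age comparison, and 1 of 8 astrocyte markers was higher (Aldh1l1) and 2 lower (Gfap and S100b) in AL mice.

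With age in AL mice, Grm5 fell while Grm4 and Grm8 rose. These 3 of 6 receptors were called, 2 higher and 1 lower, where 20.6% of all genes tested were called in this comparison, 10.7% higher and 9.97% lower. A further 2, Grm2 and Grm7, reached an unadjusted limma p under 0.05 but not the adjusted threshold. Over all 16978 genes tested, 5972 had an unadjusted limma p under 0.05 in this comparison. The 2 groups did not overlap for 2 of 6 receptors, Grm5 and Grm8, against 14.0% of all genes.

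Grm5, the postsynaptic group I receptor, measured 48.6, 42.1, 55.8, 48.8 and 47.1 FPKM in the AL mice at 5 months. At 15 months its lowest, median and highest values were 32.9, 36.2 and 37.7 FPKM. Every older AL mouse was below every younger one, and the older mice lay close together. The ratio of the group means was 0.741, with a log2 fold change of -0.43 (SE 0.10; limma adjusted p = 0.00587; exact permutation p = 0.00433). With the region score in the model the difference was -0.40 (SE 0.16; adjusted p = 0.173).

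Grm8 (mGluR8), a group III receptor of presynaptic terminals, measured 3.35, 1.60, 1.59, 2.21 and 1.71 FPKM in the younger AL mice. In the older AL mice its lowest, median and highest values were 4.77, 7.09 and 7.86 FPKM, again with no overlap. The ratio of means was 3.20 and the log2 fold change 1.67 (SE 0.40; limma adjusted p = 0.00679; exact permutation p = 0.00433). With the region score in the model this became 0.66 (SE 0.56; adjusted p = 0.538). Grm8 was the called receptor whose fitted difference moved by more than 1.5 times with the region score.

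Grm4 (mGluR4), another presynaptic group III receptor, measured 3.95, 2.13, 2.71, 2.44 and 2.27 FPKM in the younger AL mice. The older AL mice ranged from 3.47 through a median of 7.68 to 14.4 FPKM. All 6 older mice were above the median of the younger ones, but the groups overlapped because the highest younger mouse exceeded the lowest older one. This was a log2 fold change of 1.36 (SE 0.34; limma adjusted p = 0.00886; exact permutation p = 0.00866). With the region score it was 1.45 (SE 0.54; adjusted p = 0.152), so the size held while the error grew. With that score in the model, none of the 6 receptors and 25 genes in all were called. Because the score and age separate the same mice, age and the regional makeup of the tissue cannot be told apart for these 3 calls.

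Grm2 (mGluR2), a group II autoreceptor that restrains glutamate release, had the widest spread in FPKM of the 6 receptors in both AL groups. The AL mice at 5 months measured 21.7, 16.3, 7.66, 20.9 and 6.89 FPKM, and those at 15 months ranged from 11.3 through a median of 36.9 to 61.1. Of the older mice 4 of 6 were above the median of the younger ones. The log2 fold change of 1.15 (SE 0.43) did not pass the threshold (limma adjusted p = 0.0623; exact permutation p = 0.0606). It passed when AL 5 months replicate 0 (1.33), AL 15 months replicate 2 (1.42) or AL 15 months replicate 4 (1.33) was left out, so single mice decided the call.

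Grm7 (mGluR7), a group III receptor of the presynaptic active zone, measured 22.8, 21.2, 16.4, 18.4 and 17.1 FPKM in AL mice at 5 months and 20.3, 22.3 and 29.9 (lowest, median, highest) at 15 months. The groups overlapped, and their log2 difference was 0.30 (SE 0.12; limma adjusted p = 0.0694; exact permutation p = 0.0563). It passed without AL 5 months replicate 0 (0.37) or AL 15 months replicate 2 (0.35). With the region score in the model it was 0.02 (SE 0.16). Grm3, the group II receptor shared by neurons and astrocytes, measured 15.8, 15.0, 19.1, 16.1 and 17.0 FPKM at 5 months and 14.2, 18.1 and 23.5 (lowest, median, highest) at 15 months. Its difference of 0.18 (SE 0.14; limma adjusted p = 0.351) did not pass the test, and with the region score it was 0.12 (SE 0.21).

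In CR mice no receptor passed the adjusted threshold with age (0 of 6, against 3.36% of all genes). However, 3 of 6 had an unadjusted limma p under 0.05, as did 3049 of the 16978 genes tested. An exact permutation p under 0.05 was reached by 3 of 6, and its share over all genes was not computed. The fitted directions were those seen in AL mice for all 6, with 5 positive differences and Grm5 negative. Grm2 measured 11.4, 4.42, 7.07, 12.9 and 11.98 FPKM in CR mice at 5 months and 13.9, 30.1 and 36.8 FPKM (lowest, median, highest) at 15 months. These groups did not overlap, as was so for 3.26% of all genes, and the ratio of means was 2.84. On the log2 scale the difference was 1.52 (SE 0.43; limma adjusted p = 0.0547; exact permutation p = 0.00433), and 1.69 (SE 0.55; adjusted p = 0.146) with the region score. When only the CR groups were fitted the adjusted p was 0.0458. It also passed without CR 15 months replicate 4 (1.70, adjusted p = 0.0340) and, through the spread shared by all groups, without AL 15 months replicate 0, 2 or 4 (adjusted p 0.0316 to 0.0499).

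Grm8 in CR mice measured 1.46, 1.22, 2.86, 3.38 and 1.16 FPKM at 5 months. At 15 months it ranged from 1.07 through a median of 5.24 to 9.41 FPKM, and 1 mouse, CR 15 months replicate 3, lay below every younger CR mouse. The fitted log2 difference was 1.33 (SE 0.40; limma adjusted p = 0.0746; exact permutation p = 0.0433), and without that mouse it was 1.74 with an adjusted p of 0.00183. The same mouse had the lowest Grm4 (2.46 FPKM) and the highest Grm5 (50.4 FPKM) of the older CR mice, and the lowest region score of all 15-month mice, -1.55. Whether the composition of that sample had a part in its Grm8 level was not tested.

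Grm4 in CR mice measured 2.59, 3.08, 2.55, 2.85 and 2.18 FPKM at 5 months and 2.46, 4.65 and 10.01 FPKM (lowest, median, highest) at 15 months. The groups overlapped, with a log2 fold change of 0.91 (SE 0.34; limma adjusted p = 0.156; exact permutation p = 0.0260). Grm5 measured 47.9, 51.6, 47.2, 51.9 and 43.0 FPKM in the younger CR mice and 31.3, 44.6 and 50.4 FPKM (lowest, median, highest) in the older ones. Its difference of -0.19 (SE 0.10; limma adjusted p = 0.326) did not pass the test. Grm7 (0.20, SE 0.12) and Grm3 (0.22, SE 0.14) did not pass the test either, with limma adjusted p values of 0.391 and 0.405.

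**Figure D2:**
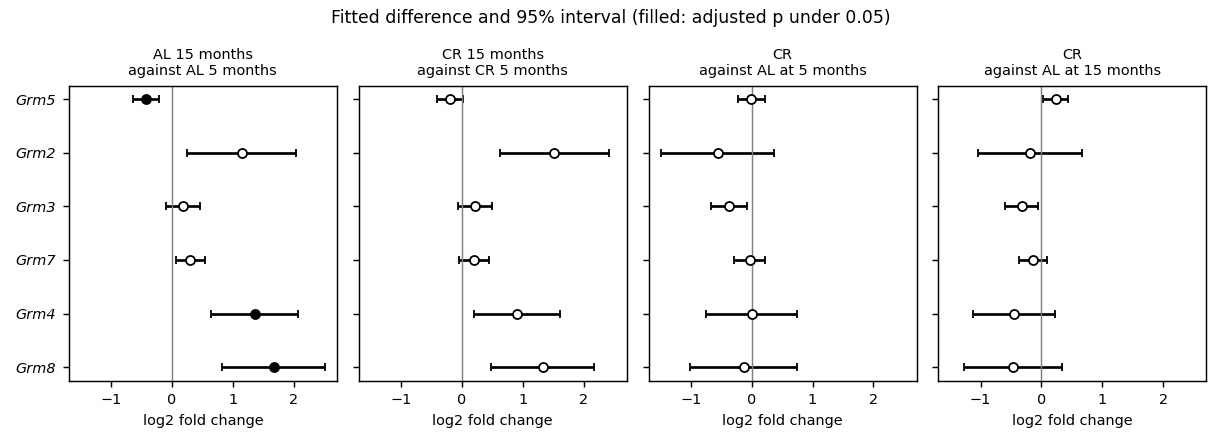
Fitted log2 fold change on the log2(FPKM + 0.1) scale (horizontal axis) of each receptor in 4 comparisons, with 95% intervals as bars and filled points for an adjusted p under 0.05. The 3 filled points, Grm5 at -0.43, Grm4 at 1.36 and Grm8 at 1.67, are all in the comparison of AL mice at 15 and 5 months.

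The diets were next compared at 15 months, where no receptor was called (0 of 6, against 0.742% of all genes). Here 2 of 6, Grm3 and Grm5, had an unadjusted limma p under 0.05, as did 2902 of the 16978 genes tested. Grm5 averaged 42.7 ± 7.58 FPKM in CR and 35.9 ± 1.66 in AL mice (n = 6 each). In CR mice it measured 44.9, 44.2, 31.3, 50.4, 49.5 and 36.1 FPKM, so that 4 of the 6 lay above the highest AL mouse of that age (37.7) and the other two did not. The log2 difference was 0.23 (SE 0.10; limma adjusted p = 0.225; exact permutation p = 0.0606). The SD of Grm5 differed between the groups too, and the older AL mice held the narrowest range of the 4 groups.

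Grm3 was lower in mean under CR at both ages. At 5 months CR mice measured 10.9, 14.7, 12.2, 14.7 and 12.1 FPKM, each below the lowest AL mouse at 15.0, where 1.36% of all genes had groups that did not overlap. The log2 difference was -0.36 (SE 0.14), with an exact permutation p of 0.00794, the smallest that 5 against 5 allows, but a limma adjusted p of 1 over all genes. At 15 months the means were 15.2 ± 2.78 FPKM in CR and 19.1 ± 3.53 in AL mice, the groups overlapped, and the difference was -0.32 (SE 0.13; limma adjusted p = 0.204; exact permutation p = 0.0671). Summed astrocyte markers, which include glial glutamate transporters, were 778 to 887 FPKM in AL and 684 to 815 in CR mice at 5 months, and 649 to 858 in AL and 716 to 1077 in CR mice at 15 months. Their part in the Grm3 levels was not tested.

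At 5 months limma called no receptor and 0.00% of all genes between the diets, while 789 genes had an unadjusted p under 0.05. The intervals of the differences show what these data could have missed. They ran from -0.22 to 0.22 for Grm5, from -0.28 to 0.22 for Grm7, from -0.74 to 0.74 for Grm4, from -1.004 to 0.75 for Grm8 and from -1.49 to 0.37 for Grm2. For Grm3 the interval was -0.66 to -0.07. At 15 months the differences of Grm2 (-0.19, SE 0.41), Grm4 (-0.45, SE 0.33), Grm7 (-0.14, SE 0.11) and Grm8 (-0.47, SE 0.38) did not pass the test. Their limma adjusted p values were 0.851, 0.494, 0.550 and 0.551.

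Whether the age difference itself depended on diet was tested with the age by diet interaction. No receptor was called (0 of 6, against 0.00% of all genes, with 1301 genes at an unadjusted limma p under 0.05), and none of the 6 reached an unadjusted p under 0.05. The interaction was 0.23 for Grm5 (95% interval -0.06 to 0.53; limma adjusted p = 0.704), 0.37 for Grm2 (-0.89 to 1.64), 0.04 for Grm3 (-0.36 to 0.44), -0.11 for Grm7 (-0.45 to 0.24), -0.34 for Grm8 (-1.53 to 0.85) and -0.45 for Grm4 (-1.46 to 0.56). The calls in AL mice that were not made in CR mice are therefore not shown to differ between the diets.

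The balance between receptor groups was followed in each mouse as a share of the summed FPKM of the 6 receptors, as a description. Grm5 made up 46.9 ± 5.39% of the sum in AL mice at 5 months (range 41.8 to 54.0%) and 51.4 ± 3.28% in CR mice (48.2 to 56.5%). At 15 months it made up 29.3 ± 6.98% in AL mice (20.3 to 40.4%) and 36.5 ± 7.72% in CR mice (27.7 to 45.0%). In AL mice the 2 ages did not overlap in this share, and in CR mice they did not either. A share also moves with the other receptors, and in CR mice the Grm5 levels themselves overlapped between the ages. The region score separated the same mice, so age and the regional makeup of the tissue cannot be told apart for the shares.

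The rest of the sum lay in the Gi/o-coupled receptors. The mean share of group II went from 30.0 to 40.6% in AL and from 23.8 to 35.7% in CR mice, of which Grm2 alone went from 13.9 to 25.3% and from 10.1 to 22.8%. Group III went from 23.1 to 30.0% in AL and from 24.8 to 27.7% in CR mice. The summed level of the Gi/o-coupled receptors was 1.15 ± 0.239 times that of Grm5 in AL and 0.953 ± 0.120 times in CR mice at 5 months, against 2.57 ± 0.835 and 1.85 ± 0.631 times at 15 months. The highest 5-month mouse had 1.39 times and the lowest 15-month mouse 1.22 times, and within each diet the ages did not overlap. This ratio follows from the Grm5 share and has the same limit. The summed level of all 6 receptors was 104 ± 9.37 FPKM in AL and 94.2 ± 6.86 in CR mice at 5 months, and 127 ± 25.0 and 118 ± 10.7 at 15 months.

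**Figure D3:**
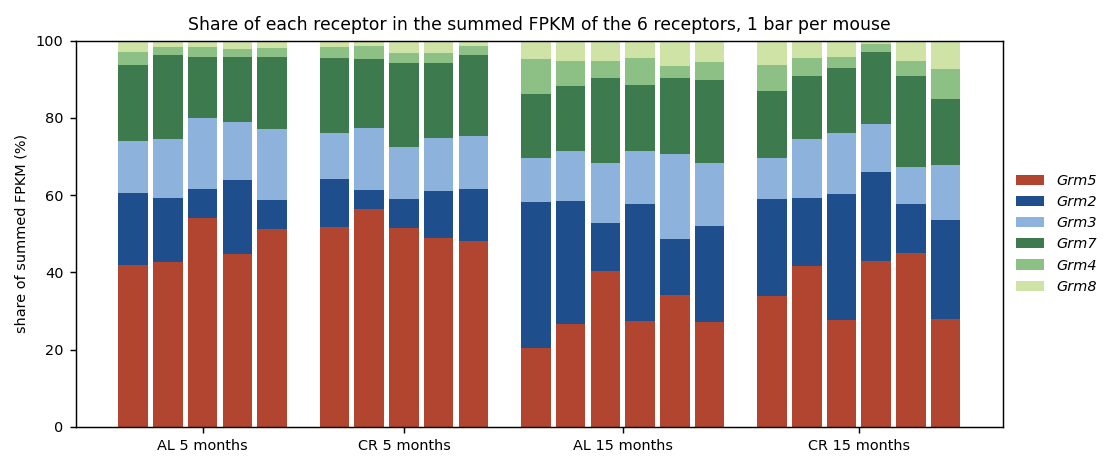
Share of each receptor in the summed FPKM of the 6 receptors (vertical axis, percent), with 1 bar per mouse in the 4 groups. The Grm5 share is 41.8 to 56.5% in the 5-month mice and 20.3 to 45.0% in the 15-month mice, and the Grm2 share averages 25.3% in AL and 22.8% in CR mice at 15 months, against 13.9% and 10.1% at 5 months.

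The region score moved the receptors to different degrees. In AL mice its inclusion left the age difference of Grm2 at 1.40 (SE 0.67), of Grm4 at 1.45 and of Grm5 at -0.40, close to or above the values without it, while Grm8 went from 1.67 to 0.66 and Grm7 from 0.30 to 0.02. In CR mice the differences with the score were Grm2 at 1.69, Grm4 at 0.97, Grm5 at -0.18, Grm3 at 0.18, Grm8 at 0.67 and Grm7 at 0.01. Within groups, over all 22 mice, deviations of the region score from the group mean had r = 0.479 with Grm8 and 0.470 with Grm7, and r between -0.113 and 0.0929 with the other 4 receptors. By permutation within groups the adjusted p values over 21 relations were 0.134 for Grm8 and 0.227 for Grm7 (rho 0.416 and 0.526, adjusted p 0.155 for both), so none of these passed. For the other 4 receptors the sign of r differed between single groups. From AL mice at 5 months to AL mice at 15 months, r was -0.791 and 0.777 for Grm3 and 0.693 and -0.412 for Grm2. It was 0.396 and -0.625 for Grm4 and -0.618 and 0.436 for Grm5. Their r over all mice therefore does not describe each group, and the model gave the score the same slope in all groups.

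**Figure D4:**
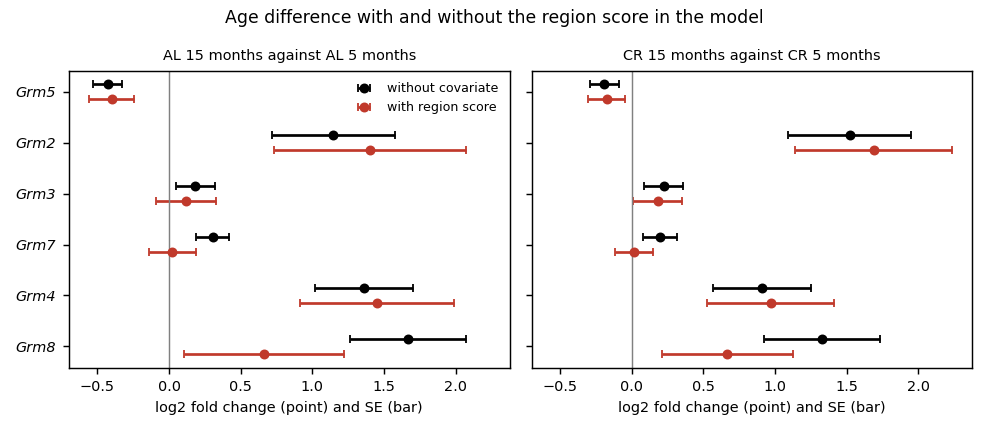
Age difference of each receptor (log2 fold change, horizontal axis, with SE as bars) without a covariate in black and with the region score in red, for AL mice on the left and CR mice on the right. Grm8 and Grm7 move toward 0 in both panels, from 1.67 to 0.66 and from 0.30 to 0.02 in AL mice, and Grm2, Grm4 and Grm5 stay near their values.

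Grm4 and Grm8 varied together among mice of the same group. The deviations of their log2 levels from the group mean had r = 0.628 over 22 mice (permutation p = 0.00081 within groups, adjusted p = 0.0170 over 21 relations). Spearman's rho was 0.556, with an adjusted p of 0.0764 that did not pass. Without the 2 mice farthest from the median in Grm4 r was 0.597, and leaving out any 1 mouse gave 0.526 to 0.693, the lowest without CR 15 months replicate 3. Within single groups r was 0.862 in AL and 0.225 in CR mice at 5 months, and 0.482 in AL and 0.873 in CR mice at 15 months. No other relation among the receptors passed the adjusted threshold. Grm2 and Grm4 had r = 0.503 (adjusted permutation p = 0.161). Their r within single groups was 0.384 in AL and -0.565 in CR mice at 5 months. At 15 months it was 0.949 in AL and 0.242 in CR mice. The older AL mice highest and lowest in Grm2, at 61.1 and 11.3 FPKM, had 14.4 and 4.05 FPKM of Grm4.

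**Figure D5:**
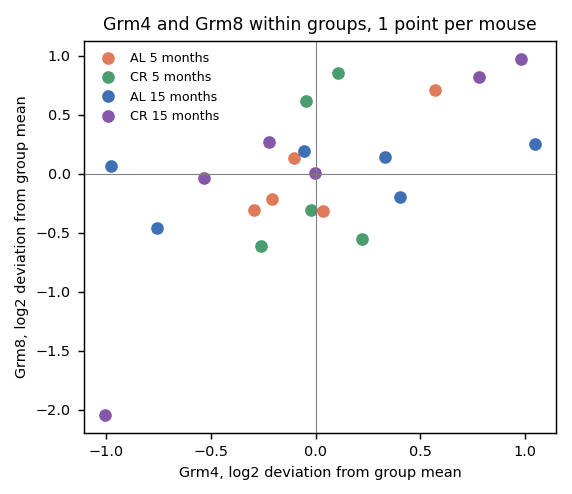
Deviation of Grm8 from its group mean (vertical axis, log2) against that of Grm4 (horizontal axis, log2), with 1 point per mouse coloured by group. The 22 points rise together with r = 0.628, and the lowest point in both is CR 15 months replicate 3.

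Genes whose levels followed each receptor most closely over the 22 libraries were listed as a description, among 13833 genes with a mean of at least 1 FPKM. For Grm8 these were Cobl (r = 0.955, and 0.919 for deviations from group means), Doc2a (0.925) and Pdzrn3 (0.921). Cobl encodes an actin nucleator and Doc2a a calcium sensor of neurotransmitter release. For Grm4 they were Kank4 (0.937), Slc16a3 (0.931), a lactate transporter, and Map3k9 (0.928). For Grm5 they were Tnr (0.905), an extracellular matrix protein of perineuronal nets, and 2 ion channel glutamate receptor subunits, Grin2b (0.896) and Gria2 (0.895). For Grm2 they were Lef1 (0.911), Ammecr1l (0.893) and Itfg2 (0.885). Lef1, a transcription factor of the Wnt pathway, was also among the 6 thalamus markers, of which it and Rora were higher with age in AL mice (log2 fold changes 0.94 and 0.77, limma adjusted p = 0.0469 and 0.00889). The thalamus markers summed to 23.4 to 45.3 FPKM in AL mice at 5 months, 24.0 to 48.2 in CR mice at 5 months, 30.6 to 75.0 in AL mice at 15 months and 27.6 to 196 in CR mice at 15 months, and their part in the Grm2 values was not tested. For Grm3 the closest were Cd34 (0.813), Afap1l1 (0.808) and Il17ra (0.798), and for Grm7 4833422C13Rik (0.860), D430041D05Rik (0.840) and Slc38a9 (0.840).

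The signaling partners of the receptors were counted in 6 lists of 69 genes, and every one passed the filter. With age, 7 of 69 were higher and 14 lower in AL mice, where 10.7% of all genes were higher and 9.97% lower. In CR mice 1 of 69 was higher and 1 lower, where 3.36% of all genes were called. Between the diets none was called at 5 months, 1 was lower in CR mice at 15 months (0.742% of all genes were called), and none was called for the interaction. In refits chosen after the data were seen, the region score left 0 of the 69 called with age in AL mice, with a smallest adjusted p of 0.0706, and the choroid plexus score left 2 higher and 10 lower. Sizes moved too for some genes named below. With the region score the log2 fold changes in AL mice were -1.20 for Homer3, -0.96 for Rgs14 and -0.25 for Slc1a1. They were -0.47 for Gnaq, 1.17 for Adcy8, 0.27 for Arrb1 and 0.23 for Ptpn5.

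Scaffold genes of the group I receptor that were called with age in AL mice were all lower. Of 9 group I scaffolds 3 were lower and none higher, beside 9.97% and 10.7% of all genes, and the median log2 fold change of the list was -0.34 against -0.0018 over all genes. Homer3, which links the receptor tail to other postsynaptic proteins, went from 15.4 ± 4.06 to 4.20 ± 1.85 FPKM (log2 fold change -1.94, SE 0.45, limma adjusted p = 0.00501) with no overlap. Ncdn (neurochondrin) fell by 0.61 on the log2 scale and Homer2 by 0.54 (adjusted p = 0.0108 and 0.0308). Homer1, the family member best known for its activity-induced short form, was 36.0 ± 3.70 FPKM in the younger and 30.4 ± 10.7 in the older AL mice and did not pass the test (adjusted p = 0.365).

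Of 13 genes of the Gq and phospholipase C pathway 4 were lower and 1 higher, beside the same 9.97% and 10.7% of all genes, with a list median of -0.46. Gnaq, the G protein alpha subunit that Grm5 engages, went from 66.1 ± 5.91 to 47.1 ± 3.33 FPKM (log2 fold change -0.49, SE 0.10, limma adjusted p = 0.00204). Trpc4, a cation channel opened downstream of Gq, fell by 1.12 on the log2 scale (adjusted p = 0.00241). For both, every older AL mouse was below every younger one.

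Of 14 Gi/o and adenylate cyclase genes 2 were higher and 2 lower, close to the shares of all genes (10.7% and 9.97%), with a list median of -0.04. Adcy8, a calcium-stimulated adenylate cyclase, rose from 6.36 ± 1.29 to 13.7 ± 3.04 FPKM (log2 fold change 1.08, SE 0.22, limma adjusted p = 0.00241). The potassium channel subunits that Gi/o receptors open went both ways, Kcnj9 rising by 0.74 on the log2 scale (adjusted p = 0.00477) and Kcnj6 falling from 21.3 ± 2.05 to 11.4 ± 1.25 FPKM (adjusted p = 0.00726).

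Among 15 receptor regulators and partners 2 were higher and 3 lower, beside 10.7% and 9.97% of all genes. Arrb1 (beta-arrestin 1), which uncouples active receptors, rose by 0.36 on the log2 scale (SE 0.05, limma adjusted p = 0.000403). Rgs14, a regulator of G protein signaling known for its enrichment in CA2 pyramidal neurons, went from 84.4 ± 21.0 to 26.7 ± 6.67 FPKM (log2 fold change -1.65, adjusted p = 0.000453), and Rgs8 fell by 0.57 on the log2 scale (adjusted p = 0.0127). Of 8 genes of glutamate supply and clearance 0 were higher and 1 was lower, again beside 10.7% and 9.97% of all genes. This was Slc1a1, the neuronal glutamate transporter, falling from 62.3 ± 4.26 to 42.6 ± 4.15 FPKM (log2 fold change -0.55, adjusted p = 0.000421). Of 10 effectors of long-term depression 2 were higher and 1 lower, beside the same shares of all genes. Cyfip1, a binding partner of the fragile X protein, fell by 0.63 on the log2 scale (adjusted p = 0.00478). The tyrosine phosphatase Ptpn5 (0.34, adjusted p = 0.0273) and the elongation factor 2 kinase Eef2k (0.24, adjusted p = 0.0442) rose.

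In CR mice only Rgs14 (log2 fold change -1.22, limma adjusted p = 0.00986) and Arrb1 (0.24, adjusted p = 0.0134) of the 69 were called with age. Neither call held with the choroid plexus score in the model (-1.09, adjusted p = 0.558, and 0.15, adjusted p = 0.755), with the region score (-0.77, adjusted p = 0.197, and 0.18, adjusted p = 0.174) or with only the CR groups fitted (adjusted p = 0.0626 and 0.0727). In the other lists the smallest adjusted p belonged to Gnai1 (-0.39, adjusted p = 0.0756), the glial glutamate transporter Slc1a2 (0.29, adjusted p = 0.0880), Trpc4 (-0.65, adjusted p = 0.132), Eef2k (0.16, adjusted p = 0.317) and Shank2 (0.22, adjusted p = 0.350). The refits with the region score and with only the CR groups each called 1 gene of the 69 lower with age, not Rgs14. The smallest limma adjusted p values in these refits were 0.0328 and 0.0434. Ptpn5 was the 1 gene called between the diets at 15 months, at 52.3 ± 8.70 FPKM in CR and 71.2 ± 6.46 in AL mice with no overlap (log2 fold change -0.46, SE 0.10, limma adjusted p = 0.0399), where 0.984% of all genes had groups that did not overlap. It was not called with only the 2 groups fitted (adjusted p = 0.191) or with the region score (-0.42, adjusted p = 0.140). In that comparison Gnaq (0.30, adjusted p = 0.117), Slc1a1 (0.26, adjusted p = 0.121), Ncdn (0.37, adjusted p = 0.218), Rgs8 (0.34, adjusted p = 0.239) and Kcnj6 (0.43, adjusted p = 0.294) had the smallest adjusted p of their lists and did not pass. For the interaction the smallest adjusted p of each list belonged to Ptpn5 (-0.51), Gnaq (0.35), Adcy1 (0.75), Slc1a1 (0.29), Rgs8 (0.48) and Homer3 (1.20), with limma adjusted p values of 0.608 to 0.667.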

How the data were processed

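CA1 RNA was sequenced from 22 mice. Per the study's methods, the authors used bcl2fastq for base calling, TopHat for alignment (mm10) and Picard to drop PCR duplicates, and the deposited FPKM values came from Cufflinks with fragment bias and multi-read corrections. Tool versions and the annotation release are not given in the sources used here. Low FPKM values did not fall into whole-read steps, so the depth of each library is unknown and no counting interval is given. Precision comes from the spread between mice.

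Samples were grouped by diet and age in their titles. Genes with a mean of at least 0.1 FPKM (16978 of 23361) were tested as log2(FPKM + 0.1) in 1 fit of 4 groups with limma 3.58.1 (eBayes with trend, two-sided, Benjamini-Hochberg) in R 4.3.3. Other steps used scipy 1.17.1, pandas 2.3.3, matplotlib 3.10.9 and numpy 2.4.6 under Python 3.11.15. The fit was tested on simulated data. Receptors, marker lists and pathway lists were chosen with earlier results of these data known. All 6 receptors are named in each comparison. From each pathway list and comparison, at most the 3 called genes with the smallest adjusted p are named, or the 1 gene with the smallest where none was called (not named for the diets at 5 months, where every adjusted p was 1). One gene that this rule would name is not reported here. Homer1 is named outside this rule, chosen after its values were seen. The 3 genes most like each receptor were ranked by Pearson r. The refits of the pathway genes with covariates or 2 groups were added after seeing the data. Alternatives were another pseudocount, filter, scaling or variance trend, 2-group fits, a replicate block, a region or choroid plexus score as covariate, and leaving out each library.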

Additional observations from a re-analysis of the deposited data

How the results depend on the processing

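The number of receptors called with age in AL mice was 3 and became 0 with the region score as covariate, and it ranged from 3 to 5 when single libraries were left out. It was 5 without AL 5 months replicate 0 or without AL 15 months replicate 2, where Grm2 and Grm7 were added (Grm7 0.37 and 0.35). In CR mice the number was 0, became 1 (Grm2) with only the 2 groups compared and with the replicate block, and ranged from 0 to 1 without single libraries. The replicate block also gave Grm2 in AL mice an adjusted p of 0.0455 (log2 fold change 1.08) and in CR mice 0.0391 (1.46), and it changed no other call of a receptor. The numbers were not taken to pair mice, since of 31 pairs of libraries with the same number in different groups, 2 had deviations from the group means with a correlation above 0.1 (range -0.139 to 0.163). The direction turned only for differences that were not called. For CR against AL at 5 months Grm4 was 0.00028 and became -0.0038 with a pseudocount of 1, -0.014 with a common median, -0.0067 with quantile normalization and -0.0035 with the region score, and ranged from -0.0728 to 0.142 without single libraries. In that comparison Grm5 became 7.8e-05 and Grm7 0.00082 with the choroid plexus score, and without single libraries Grm5 ranged from -0.0516 to 0.0495, Grm7 from -0.0840 to 0.0346 and Grm8 from -0.341 to 0.0505. For CR against AL at 15 months Grm2 ranged from -0.459 to 0.0268 without single libraries, the highest without AL 15 months replicate 0. For the interaction Grm8 was -0.34, became 0.0051 with the region score and ranged from -0.54 to 0.0670, and Grm3 from -0.0410 to 0.14, without single libraries. With the choroid plexus score all 3 calls in AL mice stayed (Grm4 1.24, Grm5 -0.43, Grm8 1.54). Of 984 refitted differences, 939 kept direction and side of the threshold, 29 reversed, 13 became called and 3 lost the call. The cause of these changes was not tested. Leaving out a mouse from a group outside a pairwise comparison could not change the size or direction of its difference. Part of the 939 was therefore fixed in advance. Over all genes, calls with age in AL mice ranged from 25 to 4313 over the settings and from 2382 to 3919 without single libraries, those in CR mice from 0 to 617 and from 331 to 775, and those between diets at 15 months from 0 to 323 and from 15 to 732. With a common median the split with age in AL mice was 1441 higher and 2286 lower, against 1809 and 1693 as fitted. The unknown read depth of each library limits the low receptors Grm4 and Grm8 most.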
